A study of Mus musculus with 16 samples.

Results

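Whole kidneys of mice labelled as lacking STING alone (Sting-ko, 4 arrays) were compared with whole kidneys of wild-type mice (WT, 4 arrays). These 8 arrays, chosen by their titles, are 8 of the 16 in the series. All mice were 6 months old, both groups carried the strain label C57BL/6, and 1 kidney RNA sample (100 ng, labelled with Cy3) was hybridised to each one-color array. The other 8 arrays hold kidneys of Fcgr2b-ko mice, a lupus model that lacks the inhibitory Fc receptor of B cells and myeloid cells, and of Fcgr2b-ko_Sting-ko mice, which lack both genes; they lent their spread to the fit and are used below only where the effect of Sting loss is set against that in the Fcgr2b-deficient background. The study calls its Sting-deficient mice Goldenticket (Sting gt/gt); as background, this allele is known as a missense mutation that abolishes the function of the protein. The WT mice were bought from an animal supplier and the Sting-ko line came from another laboratory, so colony and genotype cannot be told apart, and the labels give no sex. The Fcgr2b-ko and Fcgr2b-ko_Sting-ko mice are labelled with a mixed background. The labels do not say whether the animals of a group were littermates, and p-values measure only the spread between these samples. WT replicates 3 and 4 share the leading number of their animal label, and what it stands for is not given. Fcgr2b-ko replicate 4 shares one with Fcgr2b-ko_Sting-ko replicate 3, and Fcgr2b-ko replicate 3 with Fcgr2b-ko_Sting-ko replicate 4. The arrays of each such pair were alike in the Y-linked signal described below. The correlation within such numbers, estimated by limma over all 16 arrays, was 0.83.

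STING is an adaptor of the endoplasmic reticulum. When the enzyme cGAS meets DNA in the cytosol it makes the messenger cGAMP, which binds STING; STING then moves to the Golgi and recruits the kinase TBK1, which phosphorylates the transcription factor IRF3 and so switches on type I interferons. Interferons in turn induce a large set of antiviral genes, and a second branch through NF-kB induces inflammatory cytokines. In kidney the pathway is best known from lupus nephritis and from tubular injury, where leaked mitochondrial DNA is a trigger. In a mouse without disease, the comparison of Sting-ko with WT asks what the loss of STING alone does to the kidney transcriptome.

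All values below are levels on the log2 scale, the log2 signal of a probe minus the 75th percentile of its array, or differences of such levels, so a level of 0 is the 75th percentile itself. Levels of different genes come from different probes, so an order of genes by signal sorts probes and not amounts of transcript. On the 8 arrays between 29814 and 35508 of 56605 probes were well above background, no probe was saturated, and the 75th percentile of the signal lay between 279 and 657. The correlation over the tested probes was between 0.927 and 0.987 for pairs of WT arrays, between 0.932 and 0.968 for pairs of Sting-ko arrays, and between 0.889 and 0.991 for pairs across the groups, so the groups did not form separate clusters.

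The genes that check the labels came first. The single Sting1 probe read 1.03, -1.35, -0.59 and -0.0050 in WT replicates 1 to 4 and 1.01, 0.15, -0.099 and 0.11 in the Sting-ko replicates. The groups overlapped, with a log2 change of 0.52 (SE 0.66, limma adjusted p = 0.794). A missense allele need not lower its mRNA, so this probe does not check the genotype. Fcgr2b, which both groups should carry intact, read 2.13, 1.91, 1.60 and 1.14 in WT and 1.54, 1.05, 0.70 and -0.19 in Sting-ko, and the Sting-ko values reach down into the range of the 8 Fcgr2b-deficient arrays, from -0.40 to 0.70. The log2 change of Fcgr2b was -0.92 (SE 0.35, limma adjusted p = 0.732). The kidney markers were high on all 8 arrays: Kap, an androgen-regulated protein of the proximal tubule, lay between 9.29 and 10.26, and Umod, the uromodulin of the thick ascending limb, between 7.37 and 8.69.

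A pair of features set arrays of the same label apart, and both bear on every result below. The first is sex. The Y-linked genes Eif2s3y, Ddx3y, Kdm5d and Uty were well above background on WT replicates 1 and 2 and on Sting-ko replicate 3, and not well above background on the other 5 arrays. Xist, the RNA that silences 1 X chromosome in female cells, showed the reverse: it read -7.37, -6.75, -1.34 and -1.37 in WT and -1.07, -0.78, -6.55 and -1.39 in Sting-ko. The 2 WT arrays with Y-linked signal were both on slide 1 and the other 2 WT arrays both on slide 2, so in WT sex and slide cannot be told apart. The second bears on the strain label. Ifi202b, an interferon-inducible gene that C57BL/6 mice are known to express hardly or not at all, was not well above background on any WT array (-7.48, -6.83, -6.57 and -7.31) or on Sting-ko replicates 1 and 3 (-7.24 and -6.69), but was well above background on Sting-ko replicates 2 and 4 (-1.91 and -2.78). On the 8 Fcgr2b-deficient arrays, labelled with a mixed background, it lay between -1.47 and 3.27. Ifi202b and Itln1, another gene known to differ between strains, were chosen after their values were seen; Itln1 was also highest on Sting-ko replicates 2 and 4 (-5.01 and -4.27, against -7.26 to -6.35 on the other 6), though on no array of either group well above background. In Ifi202b these 2 arrays go against their strain label, and what brought this about was not tested. On Sting-ko replicate 4 both Ifi202b and Fcgr2b depart from the label, since its Fcgr2b level of -0.19 lies within the range of the Fcgr2b-deficient arrays. The study places Fcgr2b and the Ifi200 family, to which Ifi202b belongs, in the same autoimmune susceptibility interval. The 2 values are therefore not independent signs of a departure. The count of probes and the medians of the main lists are therefore also given without both arrays.

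**Figure D1:**
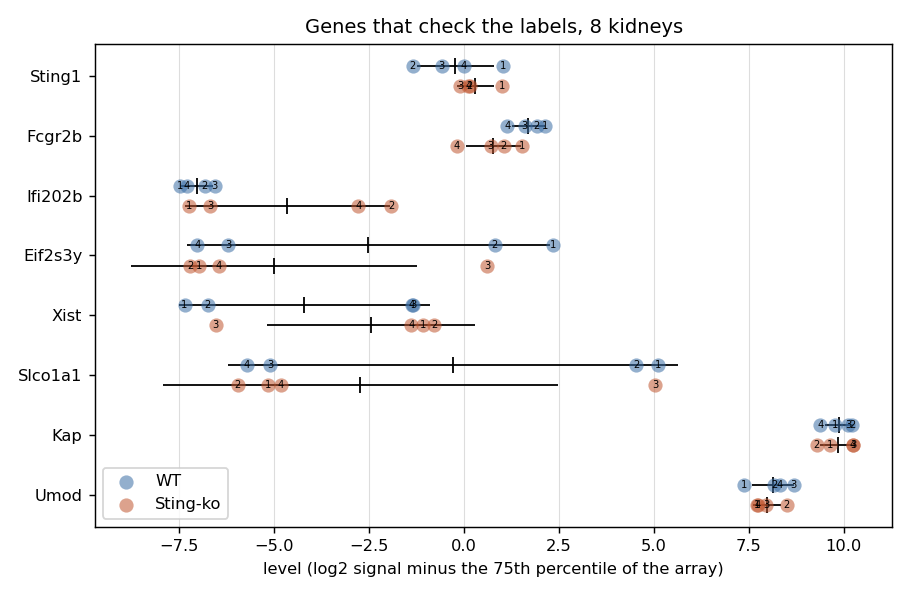
Level of 8 genes on the 8 arrays (x axis, log2 signal minus the 75th percentile of the array); each circle is 1 kidney and its number is the replicate, blue for WT and orange for Sting-ko, with a tick and line for mean and SD. Ifi202b separates Sting-ko replicates 2 and 4 from the other 6 arrays, and Eif2s3y, Xist and the male-biased transporter Slco1a1 separate WT replicates 1 and 2 and Sting-ko replicate 3 from the other 5.

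No probe passed the test of Sting-ko against WT. Of 35629 probes, limma called 0 (0%) at an adjusted p under 0.05 with a 2-fold change, and the smallest adjusted p was 0.732. At an unadjusted p under 0.05 there were 1339 probes (3.76%), fewer than the share that this threshold passes by definition when nothing differs; 657 were higher and 682 lower in Sting-ko. The authors' own log2 table of the same arrays gave 0 calls too, and 221 higher against 1073 lower at that unadjusted threshold. The median 95% interval of a gene reached 0.77 log2 units to either side of its estimate. Among 16401 named genes, 7551 were higher and 8850 lower (54%), with a median log2 change of -0.045. In 386 genes (2.35%) the 4 arrays of a group all lay above the 4 of the other: 101 (0.616%) were higher and 285 (1.74%) lower in Sting-ko. A two-sided exact Mann-Whitney test cannot go below p = 0.0286 with 4 against 4; 727 of the probes reached it, 127 of them with a 2-fold change, and 0 held after Benjamini-Hochberg adjustment.

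Of 32 measured genes of the cGAS-STING pathway, 0 were called, 13 were higher and 19 lower in Sting-ko, and the median log2 change was -0.071 beside -0.045 for all genes. The median was 0.08 after quantile normalization, so the direction of this small value depends on the scaling. At an unadjusted p under 0.05 there were 3 higher genes and 1 lower gene (4 of 32, beside 604 of 16401, 3.68%, of all genes, of which 1.66% higher and 2.02% lower), and in 1 gene higher and 1 gene lower the groups did not overlap. Taken by role, the sensor genes were not separated: Cgas, which makes cGAMP, read -1.35, -3.74, -3.24 and -2.76 in WT and -1.16, -2.68, -2.67 and -2.18 in Sting-ko (log2 change 0.60, SE 0.67), and Ifi204, an interferon-inducible DNA sensor, had a log2 change of 0.66 (SE 0.90). The spread of both within a group was wider than the difference between groups.

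Of the kinases and factors below STING, Tbk1 was the one whose interval did not reach 0. It read 0.049, -0.21, -0.62 and -0.25 in WT and -0.47, -0.35, -0.96 and -2.35 in Sting-ko, a log2 change of -0.78 (95% interval -1.54 to -0.015, limma adjusted p = 0.732). The groups overlapped and Sting-ko replicate 4 was far below the rest; without it the change was -0.34. The related kinase Ikbke had a log2 change of -0.65 (SE 0.47), and of -0.16 without that array. Irf3, the factor TBK1 phosphorylates, was level across the 8 arrays, from 4.26 to 4.83 with a log2 change of -0.018 (SE 0.25), and Irf7, which interferon itself induces, had a log2 change of 0.32 (SE 0.50). Lyn, the tyrosine kinase whose binding to STING the study examined in dendritic cells, had a log2 change of 0.15 (SE 0.46), with 1 high array in each group: 3.17 in WT replicate 1 and 3.31 in Sting-ko replicate 1, against 2.05 to 2.33 on the other 6.

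The genes that hold, move or mark the STING protein moved in both directions. Trim56, a ubiquitin ligase reported to act on cGAS and STING, was 1 of the 2 pathway genes without overlap. It read 1.56, 1.40, 1.64 and 1.55 in WT and 1.89, 1.79, 2.42 and 3.28 in Sting-ko, 1.74-fold higher (log2 change 0.80, SE 0.32). Every Sting-ko array was above every WT array, with Sting-ko replicate 4 the highest; without it the change was 0.49. Stim1, the calcium sensor that retains STING in the endoplasmic reticulum, read 1.28, 0.99, 1.85 and 1.78 in WT and 2.22, 1.71, 2.23 and 2.27 in Sting-ko (log2 change 0.63, SE 0.26), with Sting-ko replicate 2 inside the WT range. Surf4 and Copa, which return STING from the Golgi, had log2 changes of -0.10 (SE 0.21) and -0.34 (SE 0.23). The ubiquitin ligases Trim32 and Rnf5 had log2 changes of -0.36 (SE 0.25) and -0.88 (SE 0.59), the latter -0.49 without Sting-ko replicate 4.

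Enpp1, the enzyme that degrades cGAMP outside the cell, was the pathway gene that was lower without overlap. It read 0.98, 1.42, 0.98 and 0.99 in WT and 0.76, 0.92, 0.70 and 0.90 in Sting-ko, 1.21-fold lower (log2 change -0.27, SE 0.19); the gap between the groups was narrow and WT replicate 2 stood above the rest. Of the carriers of cGAMP, Lrrc8c, a subunit of volume-regulated anion channels, had the largest increase of the pathway. It read -2.15, -4.89, -3.82 and -3.73 in WT and -1.64, -3.22, -1.75 and -2.40 in Sting-ko (log2 change 1.40, SE 0.59), and WT replicate 1 lay within the Sting-ko values. The importer Slc19a1 had a log2 change of -0.72 (SE 0.54). Among the nucleases that clear self DNA, Dnase2a of the lysosome had a log2 change of 0.78 (95% interval -0.025 to 1.59; 0.36 without Sting-ko replicate 4), Trex1 of 0.32 (SE 0.32) and Samhd1 of 0.39 (SE 0.39).

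**Figure D2:**
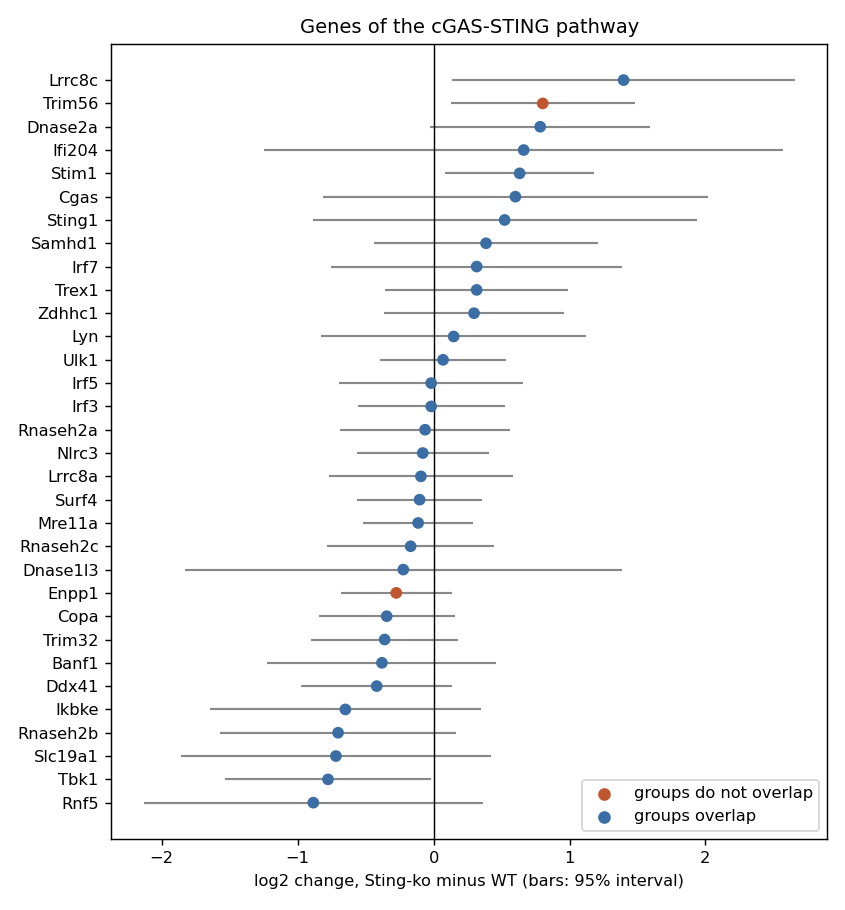
Log2 change of the 32 measured pathway genes in Sting-ko against WT (points) with 95% intervals of the limma fit (lines), ordered by size. The 2 orange genes, Trim56 and Enpp1, are those whose 4 Sting-ko and 4 WT arrays did not overlap; the interval of 28 genes includes 0.

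The interferon-inducible genes, the usual readout of STING activity, gave no call, and the sign of their median was not stable. Of 73 measured, 49 were higher and 24 lower in Sting-ko, and 0 were called. An unadjusted p under 0.05 was reached by 0 (3.68% of all genes), and in 0 did the groups fail to overlap (2.35% of all genes). The median log2 change was 0.23. Subtracting the array median in place of the 75th percentile moved the median of all genes from -0.045 to -0.29 and that of the list to -0.017, so the sign of the list depends on the scaling, while it lies above the median of all genes under both. The change ranged from -0.68 for Igtp, an interferon-inducible GTPase, to 1.32 for Oas2, an antiviral oligoadenylate synthetase. Oas2 read -0.59, -3.98, -2.55 and -1.53 in WT and 0.066, -1.60, -1.23 and -0.59 in Sting-ko (SE 0.83). Mndal, Slfn8 and Sp100, also more than 2-fold higher, had log2 changes of 1.11, 1.06 and 1.06 with SE between 0.77 and 0.86.

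The spread of these genes lay between mice of 1 group. Averaged over the 73 genes and relative to the WT mean, the level was 0.96 on WT replicate 1 and 1.08 on Sting-ko replicate 1, against -0.73 to 0.067 on the other 6 arrays, so each group held 1 kidney with a higher interferon-inducible level. The same 2 arrays had the highest means of the lists for macrophages and dendritic cells (0.91 and 1.16), endothelium (1.58 and 1.58) and fat (3.34 and 1.77); the part of these cells in the interferon values was not tested, and in bulk kidney fewer cells of a type and less RNA per cell cannot be told apart. Without Sting-ko replicates 2 and 4, 61 of the 73 genes were higher, with a median of 0.48, and without WT replicate 2, 36 were higher, with a median of -0.012. Without Sting-ko replicate 1 the median was -0.0037, so the sign of the list turned when either the WT array with the lowest mean or the Sting-ko array with the highest was left out.

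Many of these genes carry the interferon-stimulated response element, here searched as 2 copies of GAAA that are 2 bases apart, on both strands, in the 250 bases before the gene's start (RefSeq, GRCm38.p6). Of the 56 measured interferon-inducible genes with a promoter in the table, 21 (37.5%) held it, beside 3.34% of 12952 measured genes. The 21 had a median log2 change of 0.45 (14 higher) and the 35 without the motif one of 0.20 (25 higher), so both were on the same side. The 4 brightest members that hold it are shown, since they are the members whose readout is farthest above background; the capitals mark the match nearest to the start.
Tgtp2, chr11:49064248-49064307, minus strand: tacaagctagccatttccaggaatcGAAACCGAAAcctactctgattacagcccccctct
Igtp, chr11:58199497-58199555, plus strand: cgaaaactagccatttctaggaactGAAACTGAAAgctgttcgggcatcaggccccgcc
Irgm1, chr11:48871421-48871469, minus strand: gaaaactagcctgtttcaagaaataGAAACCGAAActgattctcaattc
Bst2, chr8:71537562-71537621, minus strand: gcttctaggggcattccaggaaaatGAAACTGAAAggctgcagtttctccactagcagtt
The 3 GTPase genes of chromosome 11 had log2 changes of -0.42 (Tgtp2), -0.68 (Igtp) and -0.54 (Irgm1), each within 2 SE of 0, while Bst2, which tethers budding virus to the cell, had one of 0.28 (SE 0.50).

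The other inflammatory lists gave no call either. Of 18 measured NF-kB and inflammatory genes, 14 were higher (median 0.33), and the largest change was that of the prostaglandin synthase Ptgs2 (log2 change 1.37, SE 0.95), which was well above background on 1 WT and 2 Sting-ko arrays. The chemokine Cxcl1 had a log2 change of 0.74 (SE 0.99). Of 18 other innate sensors 8 were higher and 10 lower (median -0.077). The DNA sensor Aim2 had a log2 change of 1.21 (SE 1.16) and the endotoxin receptor Tlr4 one of 0.88 (SE 0.82). The inflammasome protein Nlrp3 had one of 0.88 (SE 0.41), and of 0.57 without Sting-ko replicate 4. Tlr7, a sensor of RNA in endosomes, had one of -0.87 (SE 0.36), and of -0.42 without Sting-ko replicate 4. Of 11 interferon ligands, receptors and signalling genes 6 were higher, and Ifng was well above background on 1 WT and 2 Sting-ko arrays. All 9 measured macrophage and dendritic markers were higher (median 0.34), among them the lysosomal Cd68 at 0.53 (SE 0.48) and the integrin Itgax at 0.67 (SE 0.75). All 5 B and plasma cell markers were higher (median 0.87), with the antibody joining chain Jchain at 1.19 (SE 1.05). None of these 14 markers was called. None separated the groups either, which 2.35% of all genes did. Of 20 complement genes 13, of 11 class II genes 8 and of 14 class I genes 8 were higher, with medians of 0.28, 0.34 and 0.13; the class I median was -0.12 with the array median as the scale. The lists for T cells (4 of 6 higher), cytotoxic cells (2 of 6) and neutrophils (1 of 4) had medians of 0.28, -0.25 and -0.43. These medians moved with single arrays. Leaving out 1 array at a time gave -0.043 (without Sting-ko replicate 1) to 0.42 (without WT replicate 1) for T cells, -0.46 to 0.30 for cytotoxic cells and 0.019 to 0.73 for macrophages and dendritic cells, each at the same 2 arrays, and -0.84 (without Sting-ko replicate 3) to 0.20 (without WT replicate 1) for neutrophils. The complement median was -0.069 and the class I median -0.18 without Sting-ko replicate 1. Without both Sting-ko arrays that carry Ifi202b the medians were 0.49 for neutrophils and 0.57 for cytotoxic cells, both of the opposite sign, 0.58 for T cells, 0.70 for complement, 0.69 for class II and 0.73 for macrophages and dendritic cells.

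**Figure D3:**
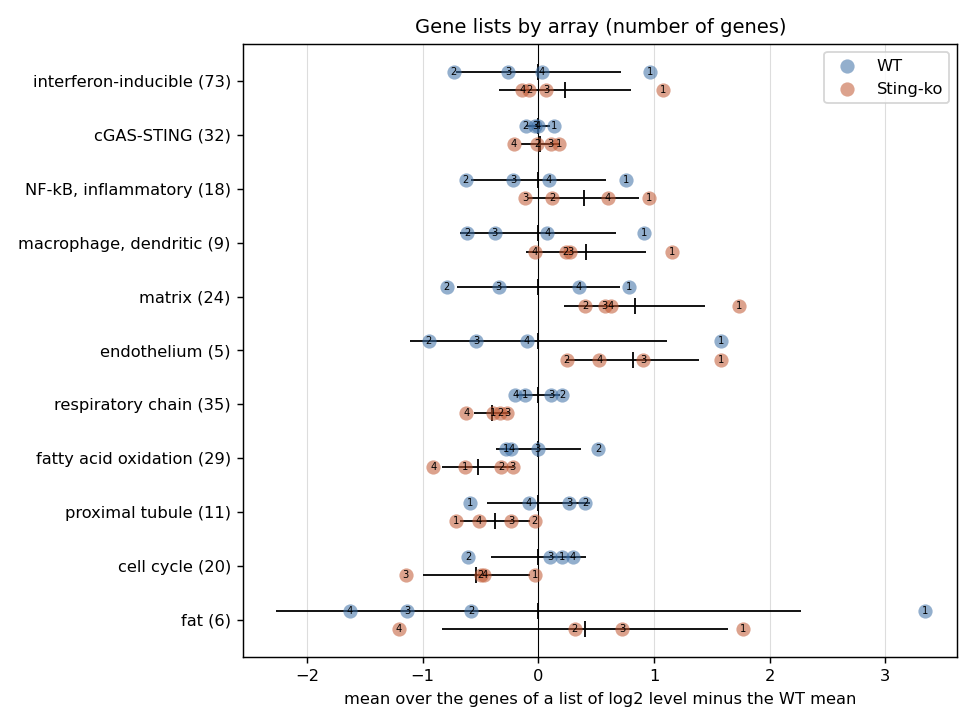
Mean over the genes of a list of the log2 level minus the WT mean of each gene (x axis), by array; circles are kidneys with their replicate number, blue for WT and orange for Sting-ko, and ticks and lines give mean and SD. Replicates 1 of both groups have the highest interferon-inducible, macrophage and endothelial means, and the respiratory chain is the list shown whose 4 Sting-ko means all lie below the 4 WT means.

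Of the 101 genes that were higher in Sting-ko without overlap, the 10 largest increases ran from 1.36 to 1.89 on the log2 scale, and 2 of the 10 were well above background on all 8 arrays. Armc2, a protein needed to build sperm flagella, had the largest. It read -3.76, -6.14, -5.33 and -4.88 in WT, where 1 array was well above background, and -2.64, -3.52, -3.64 and -2.75 in Sting-ko, where 4 were (log2 change 1.89, SE 0.54, limma adjusted p = 0.732). The gap between the groups was small next to the spread within WT. Lef1, a transcription factor of the Wnt pathway, was measured on all 8 arrays and read -2.74, -4.02, -3.34 and -3.15 in WT and -2.27, -2.32, -1.69 and -1.33 in Sting-ko, 2.66-fold higher (SE 0.40 on the log2 scale). Fbln2, an extracellular matrix protein, was the other gene measured on all 8. It read -2.59, -3.65, -3.53 and -2.43 in WT and -1.71, -1.93, -2.16 and -0.36 in Sting-ko (log2 change 1.51, SE 0.61).

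The other 7 were the coiled-coil gene Ccdc180, the secreted Lgi2, the lens filament gene Bfsp1, Ankrd35, the postsynaptic scaffold Dlgap1, the homeobox factor Irx5 and the oestrogen-responsive Greb1. Ccdc180 and Lgi2 were not well above background on any WT array and were above it on 2 and 1 Sting-ko arrays, so no fold is given for either. WT replicate 2 was the lowest array in 7 of the 10 genes and in 66 of all 101, and Sting-ko replicate 4 the highest in 7 of the 10 and in 66 of the 101. By the size of p the leading genes were Armc2, Lef1, 5930430L01Rik, Pi16 and Ptgis. Pi16, a secreted peptidase inhibitor of fibroblasts, read -0.21, -1.39, -0.75 and -0.26 in WT and 0.48, 0.38, 0.41 and 1.43 in Sting-ko (log2 change 1.33, SE 0.39). Ptgis, the prostacyclin synthase of vessels, had a log2 change of 1.11 (SE 0.35), and 5930430L01Rik one of 1.03 (SE 0.29).

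Of the 285 genes that were lower without overlap, the 10 largest decreases ran from -2.44 to -1.28, and 8 of the 10 were well above background on all 8 arrays. Slc13a1, the sodium-sulfate cotransporter of the proximal tubule, had the smallest p of all the named genes without overlap. It read 5.68, 6.76, 5.68 and 6.28 in WT and 5.13, 5.46, 4.55 and 4.02 in Sting-ko, 2.48-fold lower (log2 change -1.31, SE 0.32, limma adjusted p = 0.732). Every Sting-ko kidney was below every WT kidney, and without Sting-ko replicate 4 the change was -1.06. Cyp2a22, a cytochrome P450, read -0.63, 1.46, -0.54 and -0.43 in WT and -2.65, -1.21, -1.39 and -3.61 in Sting-ko (log2 change -2.18, SE 0.82), with WT replicate 2 high and Sting-ko replicates 1 and 4 low. The predicted gene Gm4340 was well above background on 3 WT arrays and on no Sting-ko array. It was at least 1.79-fold lower in Sting-ko, the WT mean against the lowest measurable signal of each Sting-ko array. It read -3.24 and -1.86 on WT replicates 1 and 2, which carry Y-linked signal, and -5.70 and -4.90 on replicates 3 and 4. With arrays that lack Y-linked signal alone its log2 change was -1.18, beside -2.44 over all arrays.

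The other 7 were Gm3716, Dleu7, the steroid dehydrogenase Hsd3b3, the flippase Atp8b3, the co-chaperone Dnajc12, the water channel Aqp8 and the glycosyltransferase Ugt3a1. Sting-ko replicate 4 was the lowest array in 9 of the 10 genes and in 213 of all 285, and WT replicate 2 the highest in 8 of the 10 and in 179 of the 285. In Dnajc12, for example, WT read 6.89, 6.27, 5.39 and 5.44 and Sting-ko 4.96, 5.16, 5.20 and 3.07. Aqp8 read 0.91 and 1.34 on the 2 WT arrays with Y-linked signal, -0.88 and -0.84 on the other WT arrays, and -1.39 to -0.98 on the Sting-ko arrays, where the array with Y-linked signal was at -1.18. With arrays that lack Y-linked signal alone its log2 change was -0.39. By the size of p the leading genes were Slc13a1, Thg1l, Gm4340, Trim75 and Gsta3. Gsta3, a glutathione transferase, had a log2 change of -1.16 (SE 0.37), Thg1l, which adds a guanine to histidine tRNA, one of -0.88 (SE 0.24), and Trim75, well above background on 2 WT arrays and on no Sting-ko array, was at least 1.07-fold lower in Sting-ko by the same bound.

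**Figure D4:**
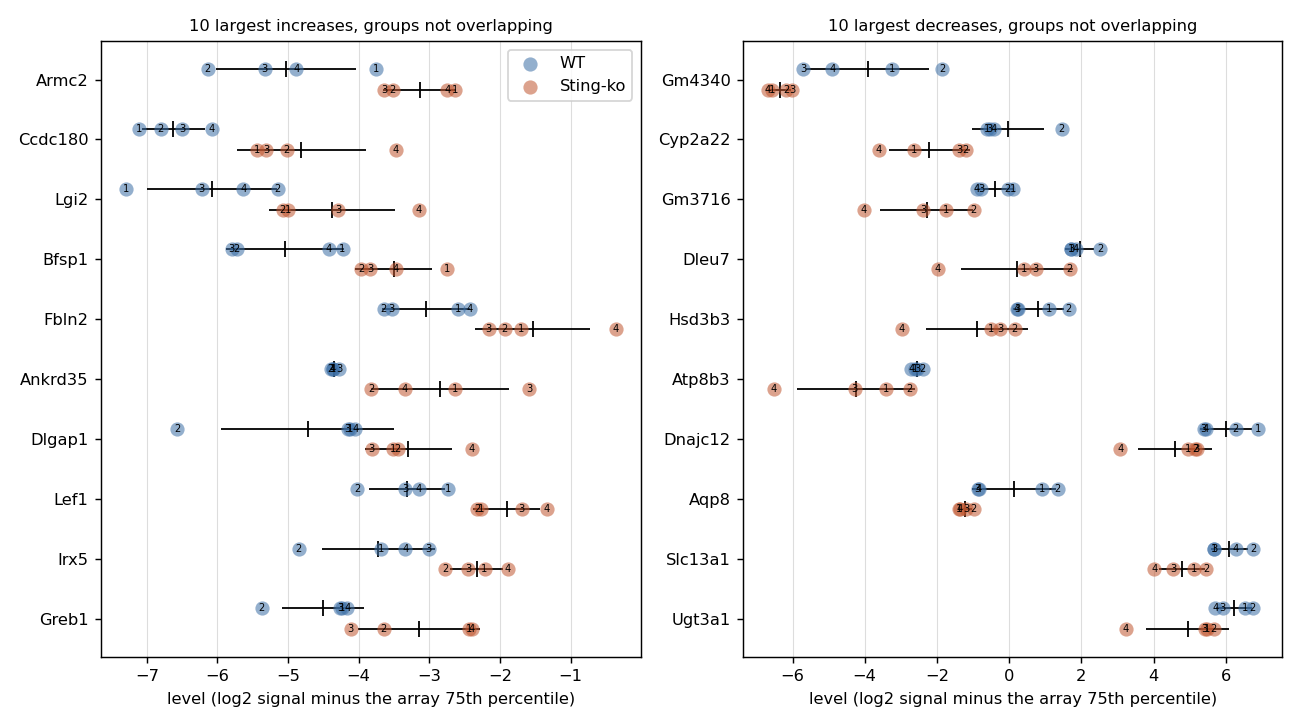
Level (x axis, log2 signal minus the 75th percentile of the array) of the 10 largest increases and the 10 largest decreases among genes whose groups did not overlap; circles are kidneys with their replicate number, ticks and lines mean and SD. The genes were chosen for this separation, so it is no finding; Sting-ko replicate 4 is the lowest circle in 9 of the 10 decreases and the highest in 7 of the 10 increases.

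The respiratory chain, the complexes of the inner mitochondrial membrane that burn fuel to make ATP, was lower throughout. All 35 measured subunits were lower in Sting-ko (54% of all genes were), and 0 were called. In 6 the groups did not overlap (background 1.74% of all genes). Sting-ko replicate 4 was the lowest array in 18 of the 35. The median log2 change was -0.37, and Cox4i1 of complex IV was nearest to 0 at -0.015. Sdhd of complex II read 6.99, 6.71, 6.46 and 6.43 in WT and 6.23, 6.27, 5.87 and 4.94 in Sting-ko (log2 change -0.82, SE 0.33; -0.52 without Sting-ko replicate 4). Uqcrfs1 of complex III, the other of the 4 largest without overlap, read 6.30, 6.80, 6.56 and 6.41 in WT and 5.93, 6.25, 5.85 and 5.20 in Sting-ko. The mean over the 35 genes, relative to WT, was -0.12, 0.21, 0.11 and -0.20 in WT and -0.39, -0.33, -0.27 and -0.62 in Sting-ko, so the groups did not overlap in this mean. Subunits of 1 chain are made together and are not 35 independent measurements.

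The size of this difference depended on how arrays were scaled. The genes were split by mean signal into 5 bins of equal size. All 35 subunits were in the brightest bin, where the median log2 change of all 3280 genes was -0.22 and 75% were lower. In that bin 3.23% of genes were lower without overlap, beside 6 of the 35 subunits. In the dimmest bin the median was 0.19 and 36.9% were lower. Quantile normalization, which gives every array the same distribution of signals, brought the brightest bin to -0.012. Under it 30 of the 35 subunits were lower, with a median of -0.17. With the 5 arrays that lack Y-linked signal 33 were lower, and without both Sting-ko arrays that carry Ifi202b 33.

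**Figure D5:**
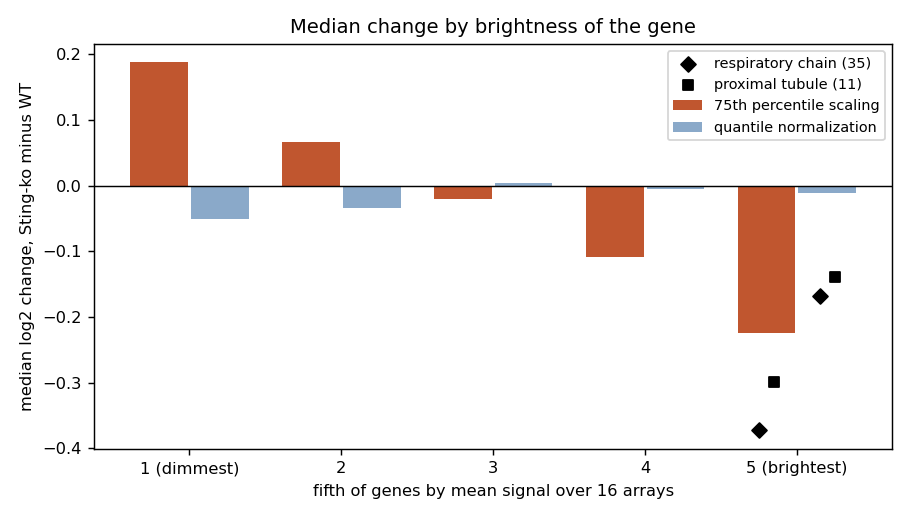
Median log2 change in Sting-ko against WT (y axis) for 5 bins of the 16401 genes ordered by mean signal (x axis), with 75th percentile scaling (orange bars) and quantile normalization (blue bars); black symbols give the medians of the 35 respiratory chain and 11 proximal tubule genes, placed in the brightest bin, where all of them lie, under each scaling. The change runs from 0.19 in the dimmest to -0.22 in the brightest bin with percentile scaling and stays between -0.050 and 0.0035 with quantile normalization, where both lists remain below 0.

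Genes of fatty acid oxidation, the main fuel path of the proximal tubule, went the same way. Of 29 genes 26 were lower (54% of all genes), 3 without overlap (1.74% of all genes). The median was -0.47 (-0.23 and 23 lower after quantile normalization). Of the 29, 22 were in the brightest bin, and 20 were lower within slide 1 and 19 within slide 2. The 2 largest decreases of the list were Cyp4a12a (log2 change -2.35, SE 2.15) and Cyp4a12b (-2.25, SE 2.12). Both were high only on the 3 arrays with Y-linked signal. Cyp4a12a, for example, read 5.25, 5.06, -0.88 and -0.74 in WT and -1.86, -1.21, 4.89 and -2.52 in Sting-ko. Etfdh, which passes electrons from fat oxidation to the chain, read 5.20, 5.48, 4.77 and 4.81 in WT and 4.48, 4.81, 4.16 and 2.88 in Sting-ko (log2 change -0.98, SE 0.38; -0.58 without Sting-ko replicate 4), and the groups overlapped. The omega-hydroxylase Cyp4a10 had a log2 change of -1.19 (SE 0.85) and was lowest on WT replicate 1 and Sting-ko replicates 3 and 4. The 11 proximal tubule markers were all lower with a median of -0.30 (-0.14 and 8 lower after quantile normalization). They ran from -0.90 (SE 0.62) for the organic anion transporter Slc22a8 to -0.020 for Kap. In 0 of them did the groups fail to overlap (2.35% of all genes). Their mean relative to WT was -0.59 on WT replicate 1 and -0.71 on Sting-ko replicate 1, the arrays with the high interferon, endothelial and fat means, and -0.51 to 0.41 on the rest; its part in the mitochondrial values was not tested. Markers of the thick limb (2 of 5 higher), distal convoluted tubule (2 of 4) and collecting duct (3 of 8) had medians between -0.11 and -0.037, and all 3 were above 0 after quantile normalization. Podocyte markers were higher in 5 of 5, with a median of 0.35.

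Extracellular matrix and vessel genes were higher. Of 24 measured genes of fibrosis and matrix 23 were higher (46% of all genes were), 9 by 2-fold or more, 0 were called, and 1 was without overlap (background 0.616%). The median log2 change was 0.90, 0.66 with scaling by the array median and 1.01 with quantile normalization. Col6a1, a chain of the beaded-filament collagen, read 0.46, -0.86, -0.11 and 0.58 in WT and 2.17, 0.65, 1.26 and 1.23 in Sting-ko (log2 change 1.31, SE 0.65). Col1a1, the main fibrillar collagen, had a log2 change of 1.36 (SE 0.89), Col5a1 of 1.30 (SE 0.66), and the pericyte receptor Pdgfrb of 1.24 (SE 0.73). The mean over the list, relative to WT, was 0.78, -0.79, -0.34 and 0.35 in WT and 1.74, 0.40, 0.57 and 0.62 in Sting-ko; the groups overlapped at WT replicate 1.

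All 5 endothelial markers were higher, with a median of 0.92 and no gene without overlap (2.35% of all genes). Kdr, the VEGF receptor, read 3.92, 1.28, 1.25 and 1.71 in WT and 3.69, 2.34, 3.85 and 2.80 in Sting-ko (log2 change 1.13, SE 0.57); WT replicate 1 was the highest of all. Cdh5, the cadherin of endothelial junctions, had a log2 change of 1.07 (SE 0.54), Egfl7 of 0.92 (SE 0.45) and Emcn of 0.54 (SE 0.68). In both lists WT replicate 2 was the lowest of the 8 arrays. Without it the matrix median was 0.58 and the endothelial median 0.63, and all 24 and all 5 genes were higher. Without both Sting-ko arrays that carry Ifi202b the medians were 1.31 and 1.25.

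Of 20 cell cycle genes 18 were lower (54% of all genes), 1 without overlap (1.74% of all genes), with a median of -0.53. The median was -0.59 after quantile normalization and -0.26 with another background correction (normexp). Within slide 1 it was -0.13 (11 lower) and within slide 2 -0.86 (19 lower). Of the 20 genes, 11 were well above background on all 8 arrays. The mitotic kinase Cdk1 read -3.55, -4.80, -3.95 and -3.47 in WT and -4.13, -4.92, -6.27 and -6.32 in Sting-ko (log2 change -1.47, SE 0.62). For Cdk1, 3 WT and 2 Sting-ko arrays were well above background. Top2a, the topoisomerase of dividing cells, was lowest on Sting-ko replicate 3 (-5.17) and between -3.52 and -1.81 on the others. Of 22 immediate early genes 18 were higher (median 0.46): Jun read 1.63, 1.53, 1.90 and 2.50 in WT and 2.47, 2.23, 3.24 and 3.56 in Sting-ko (log2 change 0.99, SE 0.39), and Egr1, Egr2 and Fos had log2 changes of 1.28, 1.65 and 0.99, each with SE between 0.73 and 0.88. Of 18 clock genes 12 were higher (median 0.25), and a few set Sting-ko replicates 3 and 4 apart: Arntl, which drives the clock, read 0.65, -0.063, 0.11 and -0.47 in WT and 0.35, 0.40, -2.55 and -2.19 in Sting-ko, and Per1, on the opposite arm, was highest on the same arrays (2.29 and 2.49, against 0.77 to 1.33). Dbp, a clock output factor, was highest on Sting-ko replicate 3 (5.38), while replicate 4 (3.67) lay below WT replicate 4 (3.82). Those 2 arrays were on slide 2 with WT replicates 3 and 4, and the labels give no time of day.

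Of 23 autophagy and lysosome genes 17 were lower (54% of all genes), with a median of -0.34, and -0.067 after quantile normalization. Map1lc3b, the protein of the autophagosome membrane, read 5.20, 5.68, 5.38 and 5.24 in WT and 4.74, 5.09, 4.82 and 4.21 in Sting-ko (log2 change -0.66, SE 0.25). It was 1 of 2 genes of this list with an unadjusted p under 0.05 (3.68% of all genes). The other was the lysosomal protease Ctsl (log2 change -0.80, SE 0.30, and -0.50 without Sting-ko replicate 4). Of 30 genes of xenobiotic metabolism 21 were lower (54% of all genes), 2 without overlap (1.74% of all genes), with a median of -0.46; Cyp2e1, an ethanol-inducible P450 with a log2 change of -1.89 (SE 1.45), was highest on the 3 arrays with Y-linked signal, at 7.34 and 8.57 on WT replicates 1 and 2, 8.07 on Sting-ko replicate 3 and 2.53 to 4.55 on the other 5. In the tubular injury list 13 of 21 were higher (median 0.30), and the fibrinogen chains Fgb and Fgg had log2 changes of -1.55 (SE 1.02) and -1.18 (SE 0.53). Endoplasmic reticulum stress (8 of 23 higher) and lipid synthesis (7 of 23) had medians of -0.13 and -0.084, and both were above 0 after quantile normalization.

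The sex-biased genes moved with Y-linked signal. The 12 male-biased kidney genes had a median of -1.75 over all arrays and of -0.063 over the 5 without Y-linked signal. Acsm3, an acyl-CoA synthetase, read 7.18, 6.68, -1.40 and -2.23 in WT and -1.18, -1.88, 6.46 and -3.61 in Sting-ko. The female-biased amino acid transporter Slc7a12 read -1.51, -1.21, 5.55 and 5.15 in WT and 6.20, 5.61, -2.96 and 4.71 in Sting-ko. With those 5 arrays alone, 2 of WT against 3 of Sting-ko, limma called 0 probes, and 703 reached an unadjusted p under 0.05, of which 616 were higher. In that comparison the respiratory chain median was -0.44, the matrix median 1.07, the interferon-inducible median 0.27 and the endothelial median 1.16.

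Sting loss in the Fcgr2b-deficient background was set beside these values; the 2 contrasts share no array. The contrast in that background called 0 probes, and 645 (1.81%) had an unadjusted p under 0.05. With the animal-label number as a random block these were 3610, with a smallest limma adjusted p of 0.097 and 0 calls. That block joins Fcgr2b-ko arrays with Fcgr2b-ko_Sting-ko arrays that share a number. The test of the difference between the contrasts called 0 of 35629 probes, with a smallest limma adjusted p of 0.661, and 2234 probes (6.27%) had an unadjusted p under 0.05. Of the 10 largest increases, 8 had the opposite sign in the Fcgr2b-deficient background and of the 10 largest decreases also 8. These genes were chosen for their value in 1 of the 2 contrasts, which alone sets part of the difference. Slide and sex were also spread unevenly over the Fcgr2b-deficient arrays. Fcgr2b-ko replicates 1, 2 and 4 and Fcgr2b-ko_Sting-ko replicate 1 were on slide 1, the others on slide 2. Y-linked signal was present on Fcgr2b-ko replicate 3 and on Fcgr2b-ko_Sting-ko replicates 2 and 4. The Fcgr2b-deficient arrays are labelled with a mixed background, and the WT and Sting-ko arrays with C57BL/6. Strain and Fcgr2b status can therefore not be told apart between the contrasts. The part of slide and sex in the opposite signs was not tested. Lef1, 1.41 here, was -0.39 (SE 0.40) there. Cyp2a22 was -2.18 here and 0.78 (SE 0.82) there. 5930430L01Rik kept its sign, with 1.03 here and 0.75 (SE 0.29) there. Of the lists, the interferon-inducible genes had medians of 0.23 here and -0.74 there, the respiratory chain of -0.37 and 0.24, the matrix genes of 0.90 and -0.67, and cell cycle genes, alike in sign, of -0.53 and -0.67. The mean of both contrasts called 0 probes and 255 (0.716%) had an unadjusted p under 0.05.

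Genes next to Sting1 were read for differences carried along with the mutant locus. Of the 10 measured genes on either side of it, 0 of 20 separated the groups (2.35% of all genes did). None of them had an unadjusted p under 0.05 (3.68% of all genes). At these shares a count of 0 among 20 genes does not show that the region is alike in both groups. The log2 changes of the 20 lay between -0.44 and 0.97, with a median of 0.15. Of 6 measured genes known to differ between C57BL/6 substrains or mouse strains (Wdfy1, Entpd4, Ide, Pdzk1, Cyfip2 and Nlrp12), 3 were higher and 3 lower, from -0.41 to 0.26. In 0 of the 6 did the groups fail to overlap (2.35% of all genes).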

How the data were processed

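Kidney RNA of 16 mice was measured on Agilent one-color arrays, 1 mouse an array; each mouse's group came from its title. Per the file headers, the deposited intensities were background-subtracted and spatially detrended by Agilent Feature Extraction, without any scaling across arrays. A second table, of log2 values made by the authors by steps not given in the sources used here, served as an alternative. Control and outlier spots were left out, spots of a probe were averaged, and the 75th percentile of the array was subtracted from log2 values. A probe was tested if 4 or more of the 16 arrays read it well above background. One limma fit (version 3.58.1, R 4.3.3) held all 16 arrays, with a mean for each genotype. Calls were probes that changed 2-fold or more at p under 0.05 after Benjamini-Hochberg adjustment. RefSeq (GRCm38.p6) named 32994 of 56605 probes (58.3%) by accession; a gene is its brightest probe. The number of arrays limits the precision. The fit was tested on simulated data.

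Genes named were both engineered genes, the 10 largest changes in each direction and the 5 smallest p among genes without overlap, all members of the pathway, substrain and sex lists, and up to 4 members of the other lists with the largest changes; Ifi202b, Itln1, Cox4i1, Irgm1, Tgtp2, Bst2, Cd68, Tlr7, Dbp and others given as examples were added after their values were seen. Members and lists were chosen with earlier results of these data known. Alternatives were other background corrections, scalings, filters and tests, slide, replicate and animal-label blocks, a Y-linked covariate, and leaving out arrays. Whether replicate numbers pair mice was checked by the correlation of deviations from the group means, which was 0.43, 0.11, -0.24 and 0.19 for numbers 1 to 4. WT and Sting-ko differed in Y-linked signal at numbers 1, 2 and 3, so this check cannot exclude a pairing.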

Additional observations from a re-analysis of the deposited data

Results flagged for a closer look

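In 22 of 218 groups of 4 arrays (the WT and the Sting-ko arrays of 109 genes named or examined), 1 array stood apart from the other 3 by Dixon's criterion; chance flags about 1 group in 20. Values are log2 levels. WT replicate 2 stood apart in 6: high for Enpp1 (1.42, others 0.98 to 0.99), Cyp2a22 (1.46, others -0.63 to -0.43) and Dleu7 (2.53, others 1.71 to 1.84), and low for Samhd1 (0.63, others 1.28 to 1.38), Dlgap1 (-6.57, others -4.15 to -4.05) and Greb1 (-5.37, others -4.27 to -4.16). WT replicate 1 was high for Lyn (3.17, others 2.05 to 2.19) and Kdr (3.92, others 1.25 to 1.71) and low for Cyp4a10 (2.73, others 4.69 to 4.77).

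Sting-ko replicate 1 was high for Lyn (3.31, others 2.23 to 2.33), the endotoxin receptor Tlr4 (-0.40, others -2.03 to -1.99) and Socs3, a feedback inhibitor of cytokine signalling (0.66, others -0.94 to -0.69). Sting-ko replicate 2 was low for Stim1 (1.71, others 2.22 to 2.27). Sting-ko replicate 4 was low for Tlr7 (-1.37, others 0.34 to 0.65), Dnajc12 (3.07, others 4.96 to 5.20) and Ugt3a1 (3.23, others 5.41 to 5.66) and high for Pi16 (1.43, others 0.38 to 0.48).

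Sting-ko replicate 3, the Sting-ko array with Y-linked signal, stood apart in Eif2s3y (0.61, others -7.22 to -6.45), Ddx3y (-1.15, others -7.34 to -6.57), Slco1a1, a male-biased transporter (5.03, others -5.97 to -4.83), Xist (-6.55, others -1.39 to -0.78) and Slc7a12 (-2.96, others 4.71 to 6.20).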

How the results depend on the processing

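The count of called probes was 0 under every setting run but 1: the two-sided exact Mann-Whitney test, unadjusted and with a 2-fold change, marked 127 probes, and 0 after adjustment. It was 0 as well for the Fcgr2b-deficient contrast, the difference and the mean of both contrasts under the settings run. At an unadjusted p under 0.05, 1339 probes became 795 when arrays with the same leading number in their animal label formed a random block (for the Fcgr2b-deficient contrast 645 became 3610), 4151 within slide 2, 703 on arrays without Y-linked signal and 820 without both Sting-ko arrays with Ifi202b; the last pair was chosen after seeing the data. Leaving out 1 array gave 329 to 2900: 329 without Sting-ko replicate 4, 367 without WT replicate 2, 2900 without WT replicate 1 and 2870 without Sting-ko replicate 2, with 0 calls each time. The replicate block gave 2030, also with 0 calls. In deviations from the group mean, 1 of 4 WT arrays correlated best with the Sting-ko array of its own number. Whether the numbers pair mice is not known. Other scalings moved the split at that threshold from 657 higher and 682 lower to 305 and 1651 (array median), 480 and 788 (quantile), 346 and 774 (normexp) and 221 and 1073 (the authors' table). The cause of these shifts was not tested.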

Other observations

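Fat markers differed more between mice of 1 group than between the groups. Ucp1, the uncoupling protein of brown fat, read 4.18, -6.08, -4.30 and -6.23 in WT and 0.29, -0.93, 0.11 and -3.59 in Sting-ko, and Adipoq, the adiponectin of fat cells, read 2.65, -1.37, -3.41 and -2.99 in WT and 1.11, -1.47, -1.06 and -4.89 in Sting-ko. WT replicate 1 was the highest in both genes and Sting-ko replicate 1 the next.

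Red cell genes had a median log2 change of 0.25 (4 of 5 higher), with list means of 0.93 and 1.12 on Sting-ko replicates 1 and 3 against -0.66 to 0.45 on the other 6 arrays. Of 6 genes of the renin-angiotensin system 2 were higher; Ren1, the renin gene, read -0.41, -0.42, 0.74 and 1.48 in WT and -0.31, 0.95, -1.13 and -1.76 in Sting-ko. Of 3 adrenal genes 1 was higher, with a median of -0.29.

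Grn and Syt10, chosen after their values were seen, swung widely from array to array. Syt10, a synaptotagmin, read -2.42, 1.31, 2.85 and 2.52 in WT and -3.92, 1.08, -5.56 and -2.02 in Sting-ko, and the brightest probe of Grn, the lysosomal progranulin, read 5.69, 8.10, 8.74 and 8.16 in WT and 4.59, 7.52, 3.86 and 6.45 in Sting-ko.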
